A study of Mus musculus with 12 samples.

Results

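The collagen genes of the embryonic mouse testis were examined by collagen type. They were all genes of the count table whose symbol has the form of a collagen chain (Col, a type number, a and a chain number), which gave 44 of 24470 genes. The types were fibrillar (11 genes), basement membrane (9), fibril-associated (9), beaded (7) and transmembrane (4). The last 4 genes, Col8a1, Col8a2, Col10a1 and Col26a1, belong to none of these and were kept as other collagens. RNA-seq was done on whole testes at E14.5, with 6 control and 6 cKO libraries, each from a pool of 3 testes. Control embryos were Nr2f2 f/f, and cKO embryos were Wt1 CreER x Nr2f2 f/f, so the floxed allele, with its LacZ cassette that Cre deletion switches on, was present in every library and CreER in the cKO libraries only. Nr2f2 encodes NR2F2 (COUP-TFII), a nuclear receptor of the testis interstitium. CreER was driven from the Wt1 locus, which is active in many somatic cells of the early gonad. It was induced by tamoxifen, given on E11.5 and E12.5 to pregnant females carrying cKO and control embryos. The treatment was thus shared by both groups, whereas any difference between Cre carriers and non-carriers is part of the comparison. The labels describe the libraries as pools and not as litters, and p-values measure the spread between these pools.

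Collagens are secreted or membrane-bound proteins of 3 chains that wind into a triple helix, for which glycine has to come first in each triplet of residues. Fibrillar collagens pack into the fibrils of connective tissue, and fibril-associated collagens sit on their surface. Basement membrane collagens build the sheets under epithelia and around vessels, and in the testis they surround the cords of Sertoli and germ cells. The beaded group holds the chains of collagen VI, which form microfilaments, and Col28a1, and transmembrane collagens are anchored in the cell membrane. The coding sequences show this difference. They were read from the GENCODE M21 transcript with the longest coding sequence, on GRCm38 (mm10), and a glycine codon was any codon of the form GGN. A repeat was a run of at least 5 triplets that each began with a glycine codon. In fibrillar collagens the longest repeat had 216 to 344 triplets, and there were 2 or 3 repeats per chain. In basement membrane collagens it had 30 to 75 triplets, in 11 to 27 repeats per chain. Beaded chains had at most 87 triplets in a row and transmembrane chains at most 55. Stretches of 30 codons from 4 of the genes are printed to show the repeat, with glycine codons in capitals and all other codons in lower case. Codons are counted from the start codon. For Col4a4 the stretch spans the end of the longest repeat, where the spacing of glycine codons breaks before the next repeat begins. For the others it starts the longest repeat.
Col3a1, codons 164 to 193: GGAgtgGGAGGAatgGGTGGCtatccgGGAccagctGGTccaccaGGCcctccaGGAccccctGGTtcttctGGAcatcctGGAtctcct
Col4a4, codons 943 to 972: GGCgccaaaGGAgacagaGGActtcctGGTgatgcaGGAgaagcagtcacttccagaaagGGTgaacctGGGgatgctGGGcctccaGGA
Col6a6, codons 1391 to 1420: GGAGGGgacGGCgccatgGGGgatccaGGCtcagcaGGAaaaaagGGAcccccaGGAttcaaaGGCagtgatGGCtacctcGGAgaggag
Col13a1, codons 468 to 497: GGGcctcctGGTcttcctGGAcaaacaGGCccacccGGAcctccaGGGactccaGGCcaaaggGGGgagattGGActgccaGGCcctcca

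Total counts per library were 7044531 to 39965574 in control and 7322959 to 59404778 in cKO pools. Collagen genes took 1.10% to 1.60% of the TMM-scaled library total in control and 0.907% to 1.47% in cKO pools. Nr2f2 itself had 162.5 to 185.9 CPM (counts relative to the TMM-scaled library total) in control and 50.2 to 118.6 CPM in cKO pools, so part of its RNA remained. Xist, the RNA of the inactive X chromosome in XX cells, exceeded 100 CPM in 4 libraries (control replicate 1 and cKO replicates 3, 5 and 6), and 5.16 to 7.68 CPM were found elsewhere. The fetal ovary markers Foxl2, Fst, Irx3, Bmp2, Rspo1 and Wnt4 summed to 315 CPM in control replicate 1, against 80.0 to 92.8 in the other controls, and to 141 to 207 CPM in cKO replicates 3, 5 and 6, against 66.7 to 74.4 in the other cKO libraries. Of these markers Foxl2, Fst and Bmp2 were higher in cKO pools when only the 8 libraries with low Xist were compared (5 control and 3 cKO, log2 fold changes 1.45, 0.62 and 0.67, adjusted p = 0.00957, 0.0216 and 0.0379), and none of the 3 passed over all libraries. Wnt4 went the other way, at -0.84 in these 8 libraries (adjusted p = 0.00686) and -0.77 over all libraries (adjusted p = 0.0249). Where the call on a gene named in the results was lost or gained in these 8 libraries, the value there is also given. The testis markers Sox9, Amh, Dmrt1, Dhh, Cldn11 and Cst9 of Sertoli cells were present in all 12 libraries, at a sum of 605 to 1042 CPM.

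Collagen expression was dominated by a few chains. Per kilobase of transcript, Col3a1 had the highest level in control testes (539 ± 45.2 CPM per kb, SD, n = 6), followed by Col1a2 (361 ± 58.4), Col1a1 (272 ± 60.3), Col6a1 (208 ± 20.4) and Col4a1 (208 ± 61.5). The same 5 genes led in cKO pools, where Col4a1 (237 ± 43.4) stood above Col1a1 (195 ± 67.7). The levels of Col6a1 and Col4a1 in control testes did not differ beyond their spread. At the other end, Col10a1, a collagen of hypertrophic cartilage, had 5 counts over all 12 libraries, and Col19a1 had 137. These 2 genes did not pass the filter on low counts, and the other 42 were tested.

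Between control and cKO testes, single collagens moved in both directions. Of the 42 genes, 12 fell and 2 rose in cKO pools at an adjusted p under 0.05 (edgeR's quasi-likelihood test, adjusted over all 15572 genes tested), whereas 4.85% of all genes tested fell and 3.28% rose. The median log2 fold change of cKO over control was -0.19 over the 42 collagens and 0.00297 over all genes tested. In 6 collagens all cKO libraries lay under all control libraries, and in 1 they lay above, where 3.13% and 2.39% of all genes tested did so. With the 8 low-Xist libraries, 8 collagens fell and 4 rose, against 3.39% and 3.68% of the genes tested in those libraries, and the collagen median was -0.03. In that fit Col3a1, Col4a6, Col5a2 and Col16a1 were no longer past the threshold, and Col6a3 and Col14a1 were higher. Leaving out 1 library gave 7 to 13 lower collagens, and 7 came without control replicate 6 and also without cKO replicate 6. The counts over all genes moved as well, and without control replicate 1 they were 1635 lower and 1471 higher, against 756 and 510 with all libraries, with 13 lower and 3 higher collagens. The count of higher collagens was 1 without control replicates 2, 3 or 4 or cKO replicates 1, 2 or 4. Of the 14 collagens, 7 passed the threshold in all 20 alternatives, namely Col4a4, Col6a5, Col6a6, Col8a1, Col8a2, Col13a1 and Col26a1.

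**Figure D1:**
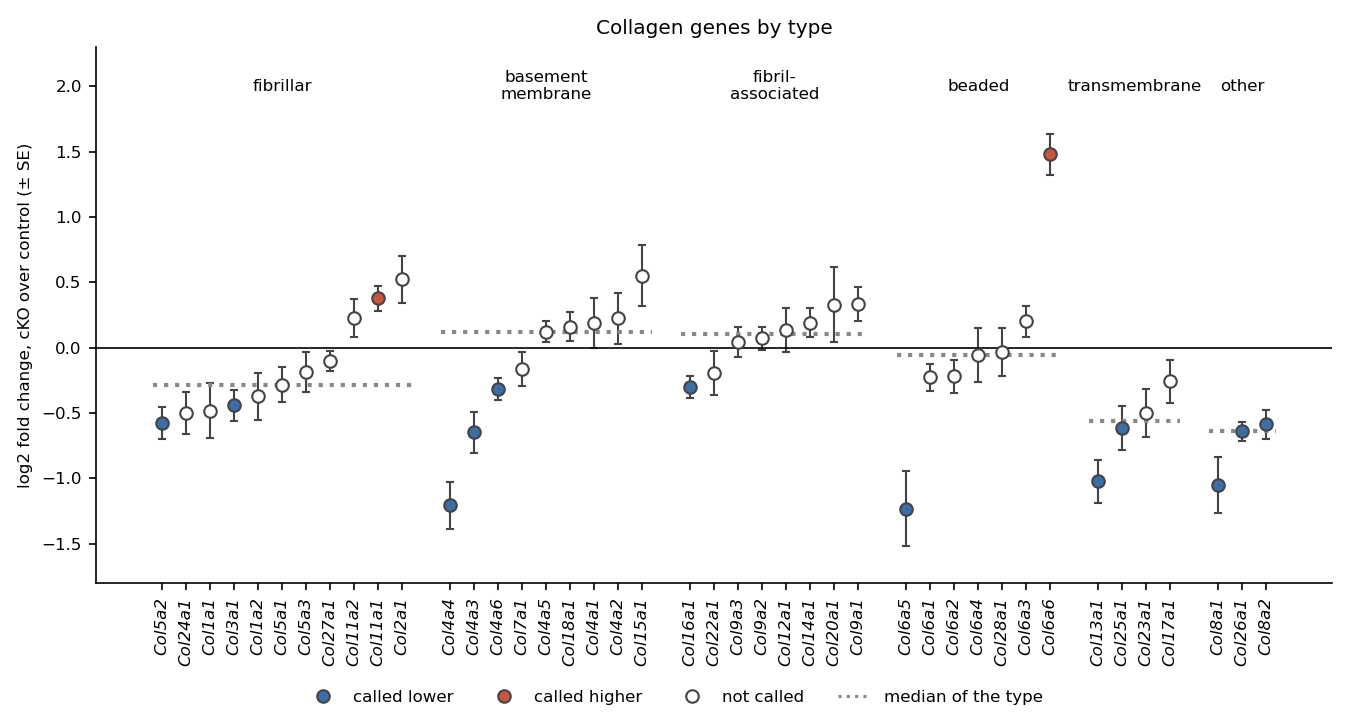
Log2 fold change of cKO over control (vertical axis) with its standard error for the 42 collagen genes tested, grouped by type, with the median of each type as a dotted line. Medians lay at -0.28 for fibrillar, 0.12 for basement membrane, 0.10 for fibril-associated, -0.06 for beaded, -0.56 for transmembrane and -0.64 for other collagens, and Col6a6 stood highest at 1.48.

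The make-up of the collagen RNA also differed. Fibrillar collagens held 52.4% to 60.3% of all collagen counts in control libraries (median 55.1%) and 44.2% to 51.9% in cKO libraries (median 47.2%). Basement membrane collagens held 16.4% to 24.7% (median 23.9%) and 26.4% to 31.3% (median 29.8%). For both types the groups did not overlap. The other types overlapped, with beaded collagens at 13.5% to 14.6% in control and 14.1% to 15.6% in cKO libraries. Shares of one total are bound to each other, and counts also grow with transcript length. The summed level of fibrillar collagens was 7733 ± 959 CPM in control and 5820 ± 1431 CPM in cKO pools, and that of basement membrane collagens 3088 ± 767 and 3500 ± 560 CPM (SD, n = 6 each), and on this scale the groups overlapped for both. In bulk tissue, fewer cells of a type and less RNA per cell cannot be told apart.

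**Figure D2:**
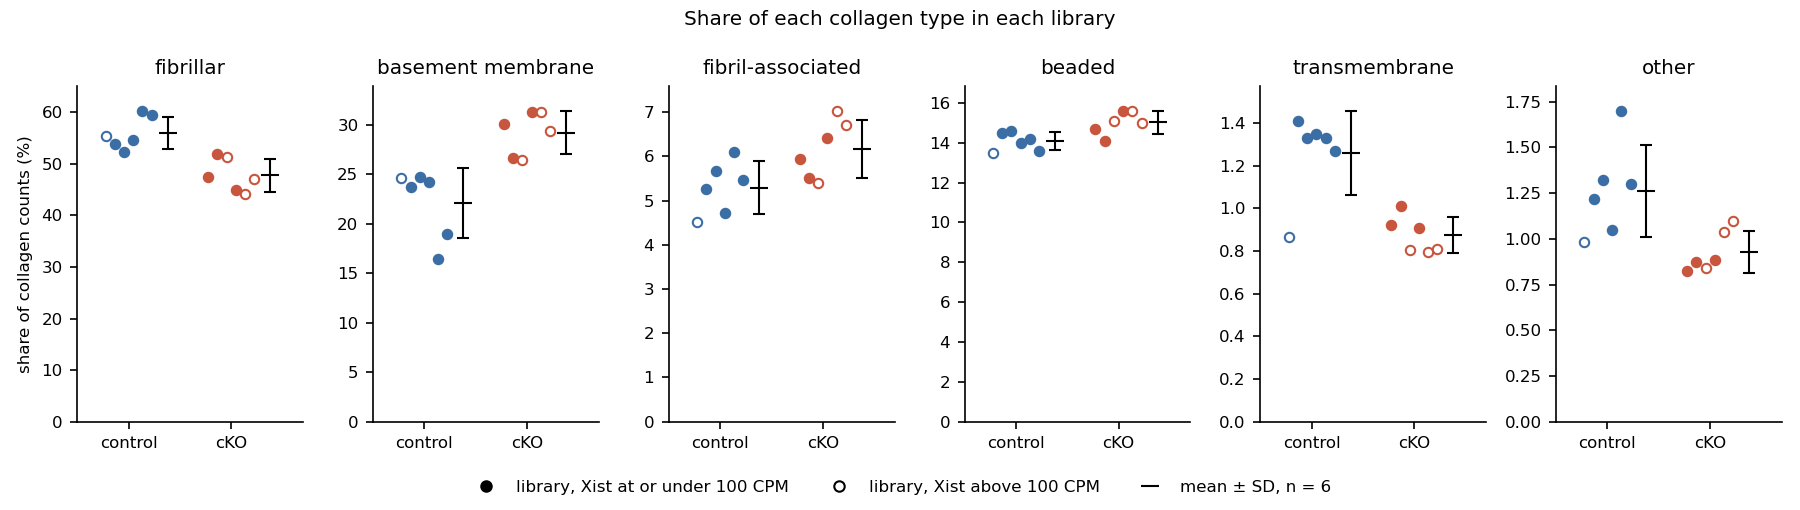
Share of the collagen counts held by each type, in percent (vertical axes, each from 0), with 1 point per library, open for libraries with Xist above 100 CPM, and the mean ± SD of 6 libraries. The fibrillar share was 56.0 ± 3.14% in control and 47.8 ± 3.22% in cKO libraries, and the basement membrane share 22.1 ± 3.54% and 29.2 ± 2.20%, with no overlap in either.

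Among fibrillar collagens, 2 of 11 genes fell and 1 rose, and the median log2 fold change was -0.28 (-0.11 in low-Xist libraries). Col5a2 and Col3a1 fell, and they lie tail to tail on chromosome 1, 24624 bases apart. Col5a2 encodes a chain of collagen V, which starts and limits the growth of collagen I fibrils. It had 306 to 488 CPM (median 346) in control and 220 to 299 CPM (median 247) in cKO pools. All cKO libraries lay under all controls, although control replicates 5 and 6, at 488 and 455 CPM, stood over the 306 to 353 CPM of the other controls. The change on the log2 scale was -0.58 (SE 0.12, adjusted p = 0.0085), and in low-Xist libraries it was -0.55 (adjusted p = 0.0607). Col3a1, which codes for the chain of collagen III in soft connective tissue, had 2675 to 3257 CPM (median 3076) in control and 1615 to 2792 CPM (median 2253) in cKO pools. The highest cKO library, replicate 2, lay within the control range, and replicates 5 and 6 were lowest at 1615 and 1784 CPM. This was a log2 fold change of -0.44 (SE 0.12, adjusted p = 0.0358). It was -0.27 in low-Xist libraries (adjusted p = 0.135) and -0.41 with Xist as a covariate (adjusted p = 0.0554), and the adjusted p was 0.053 to 0.0799 without control replicates 2, 4 or 6 or cKO replicates 1, 4, 5 or 6.

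Col1a1 and Col1a2, the chains of collagen I, did not pass the threshold. Col1a2 had 1474 to 2285 CPM (median 1928) in control and 933 to 2025 CPM (median 1571) in cKO pools, a log2 fold change of -0.37 (SE 0.18, adjusted p = 0.207). Col1a1 had a log2 fold change of -0.48 (SE 0.21, adjusted p = 0.172), from 1615 ± 358 to 1156 ± 401 CPM (SD, n = 6). Both chains were lowest in cKO replicates 5 and 6. Their ratio per library, Col1a1 over Col1a2, was 0.729 to 0.963 in control and 0.670 to 0.861 in cKO libraries, so the groups overlapped. Col5a1, the partner chain of Col5a2, had a log2 fold change of -0.28 (adjusted p = 0.205), and the ratio of Col5a1 to Col5a2 was 0.947 to 2.18 in control and 1.65 to 2.20 in cKO libraries.

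Col11a1 was the fibrillar collagen that rose. It encodes a chain of collagen XI, which is best known from cartilage. It had 66.4 to 94.3 CPM (median 76.5) in control and 82.8 to 113.7 CPM (median 103.7) in cKO pools, with 4 of 6 cKO libraries above all controls. On the log2 scale it rose by 0.38 (SE 0.10, adjusted p = 0.0309) and 0.49 in low-Xist libraries (adjusted p = 0.00906). Its adjusted p was 0.0585 to 0.0771 without control replicates 2, 3 or 4 or cKO replicates 1, 2 or 4. Col2a1, the main fibrillar collagen of cartilage, had only 1.61 to 3.54 CPM in control and 3.17 to 5.02 CPM in cKO pools, a log2 fold change of 0.52 (adjusted p = 0.0953, and 0.0334 without control replicate 1). Of 7 cartilage markers, Acan, Hapln1, Comp and Cnmd could be tested. Hapln1 (log2 fold change 0.74) and Cnmd (1.61) rose, whereas Acan (0.34, adjusted p = 0.345) and Comp (-0.45, adjusted p = 0.475) did not pass the threshold. The 7 summed to 28.7 to 34.6 CPM in control and 43.7 to 54.4 CPM in cKO pools, while Matn1, Matn3 and Snorc stayed at or under 1.09 CPM. The part of these in the Col11a1 result was not tested. The remaining fibrillar genes, Col5a3, Col11a2, Col24a1 and Col27a1, had log2 fold changes between -0.50 and 0.23, and none passed the threshold, although Col24a1 did with DESeq2 (-0.50, adjusted p = 0.0326) and without control replicate 1 (-0.57, adjusted p = 0.0225).

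**Figure D3:**
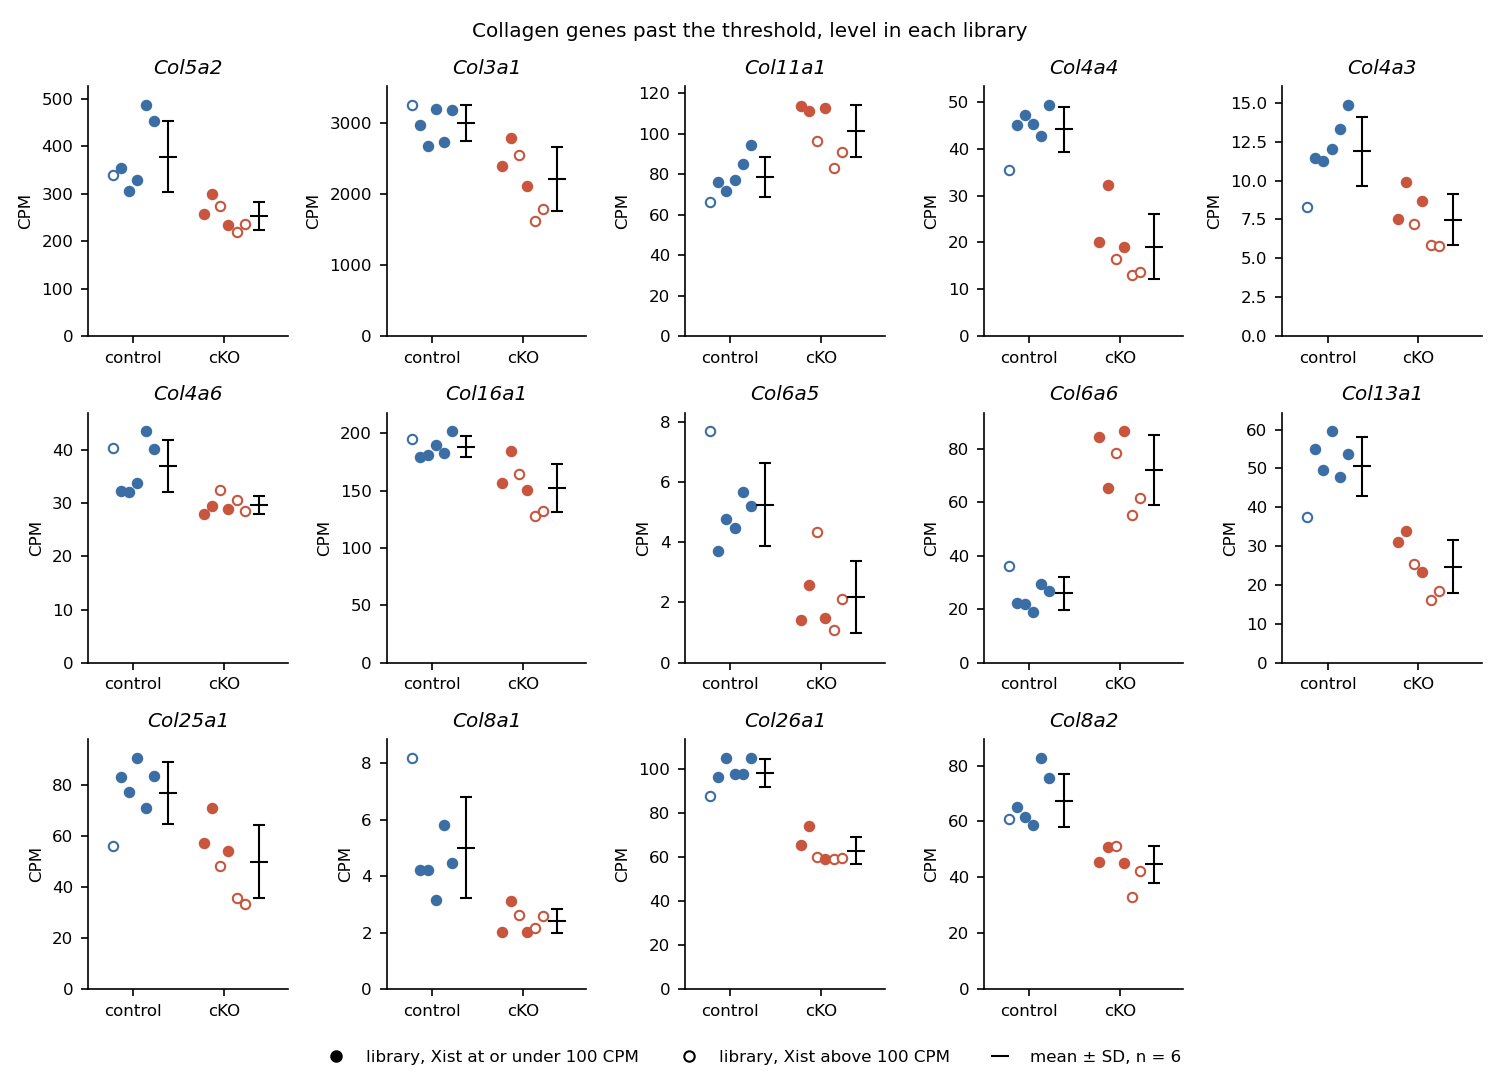
Level in CPM (vertical axes, each from 0) of the 14 collagen genes past the threshold, with 1 point per library, open for libraries with Xist above 100 CPM, and the mean ± SD of 6 libraries. In Col5a2, Col4a4, Col13a1, Col8a1, Col8a2 and Col26a1 all cKO points lie under all control points, in Col6a6 all lie above, and in the other 7 genes the groups overlap.

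Basement membrane collagens were divided. The main chains Col4a1 and Col4a2 did not pass the threshold, and 3 minor chains of collagen IV, Col4a3, Col4a4 and Col4a6, fell. The median of the 9 genes was 0.12 (0.14 in low-Xist libraries). Col4a1 and Col4a2 together form the collagen IV found in nearly all basement membranes. Col4a1 had 694 to 1815 CPM (median 1421) in control and 1202 to 1879 CPM (median 1663) in cKO pools, a log2 fold change of 0.19 (SE 0.19, adjusted p = 0.562). Col4a2 had 398 to 1078 CPM (median 823) and 714 to 1099 CPM (median 972), a log2 fold change of 0.22 (SE 0.19, adjusted p = 0.487). Control replicate 5 was lowest in both genes and control replicate 6 next in the controls. Without control replicate 5 the log2 fold changes were 0.06 and 0.09, without control replicate 1 they were 0.28 and 0.33, and in low-Xist libraries 0.48 and 0.51 (adjusted p = 0.176 and 0.154). Their starts overlap by 22 bases on opposite strands of chromosome 8, and their ratio per library stayed narrow, at 1.68 to 1.81 in control and 1.65 to 1.74 in cKO libraries.

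Col4a4 was the basement membrane collagen with the largest fold change. Col4a3 and Col4a4 encode chains that join with Col4a5 into a second collagen IV network, known from the kidney glomerulus. Col4a4 (Entrez Gene 12829, chr1:82450723-82586849 of mm10, minus strand) had 35.4 to 49.4 CPM (median 45.1) in control and 13.0 to 32.2 CPM (median 17.8) in cKO pools. All cKO libraries lay under all controls, and cKO replicate 2 was the highest of them. On the log2 scale this was -1.21 (SE 0.18, adjusted p = 0.0011), and it was -0.96 in low-Xist libraries (adjusted p = 0.00447). Col4a3 (Entrez Gene 12828, chr1:82586921-82722059, plus strand) had 8.28 to 14.9 CPM (median 11.8) in control and 5.79 to 9.92 CPM (median 7.34) in cKO pools, with 4 of 6 cKO libraries under all controls. Its change was -0.65 on the log2 scale (SE 0.16, adjusted p = 0.0218), and its adjusted p was 0.0515 without control replicate 6 and 0.0507 without cKO replicate 6. The ratio of Col4a3 to Col4a4 was 0.234 to 0.312 in control and 0.308 to 0.456 in cKO libraries, so the groups met at 1 library each. Between the starts of both genes lie 71 bases, and the genes are read in opposite directions. These 71 bases are printed on the strand of Col4a4 (RefSeq promoter table, GRCm38.p6, chr1:82586850-82586920), because the whole space between the starts of 2 genes that fell is short enough to show. Read from left to right, they run from the start of Col4a3 to that of Col4a4, and the label only names the pair. On neither strand did they hold AGGTCA, the core read by many nuclear receptors, and 69.0% of them were G or C. The 300 bases around the start of Col4a4 do hold it once, on the strand of Col4a4 and upstream of the stretch shown.
Col4a4 to Col4a3: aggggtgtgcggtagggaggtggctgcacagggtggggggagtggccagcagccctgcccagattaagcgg

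Col4a5 and Col4a6 are a second pair of this kind, on the X chromosome, with 1342 bases between their starts. Their chains make up the collagen IV network known from smooth muscle and some epithelia. Col4a6 had 32.1 to 43.6 CPM (median 37.0) in control and 28.0 to 32.5 CPM (median 29.2) in cKO pools, with 5 of 6 cKO libraries under all controls. The change was -0.32 on the log2 scale (SE 0.09, adjusted p = 0.0371). The call was lost in low-Xist libraries (-0.32, adjusted p = 0.0998) and with limma-voom (adjusted p = 0.05004), and the adjusted p was 0.0586 to 0.084 without control replicates 5 or 6 or cKO replicates 1, 2, 4, 5 or 6. Col4a5 had 108 to 154 CPM (median 121) in control and 127 to 146 CPM (median 135) in cKO pools, a log2 fold change of 0.12 (SE 0.08, adjusted p = 0.368). The ratio of Col4a5 to Col4a6 was 2.88 to 3.82 in control and 4.30 to 4.86 in cKO libraries, with no overlap. The 250 bases before each start are printed, each on the strand of its gene, with CCAAT in capitals where it occurs (RefSeq promoter table, GRCm38.p6). For Col4a6 they are chrX:141474077-141474326 on the minus strand, with 47.6% G or C. For Col4a5 they are chrX:141475169-141475418 on the plus strand, with 54.0% G or C and 1 CCAAT that begins 196 bases before the start.
Col4a6: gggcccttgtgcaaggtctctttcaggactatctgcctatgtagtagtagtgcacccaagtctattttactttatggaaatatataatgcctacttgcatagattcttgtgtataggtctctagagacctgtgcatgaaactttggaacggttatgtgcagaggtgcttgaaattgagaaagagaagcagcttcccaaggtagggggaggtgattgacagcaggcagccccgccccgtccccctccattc
Col4a5: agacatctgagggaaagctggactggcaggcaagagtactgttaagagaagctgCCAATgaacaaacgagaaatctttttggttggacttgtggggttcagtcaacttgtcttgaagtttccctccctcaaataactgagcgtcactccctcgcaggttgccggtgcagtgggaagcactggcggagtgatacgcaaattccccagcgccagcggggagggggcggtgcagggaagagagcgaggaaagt

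**Figure D4:**
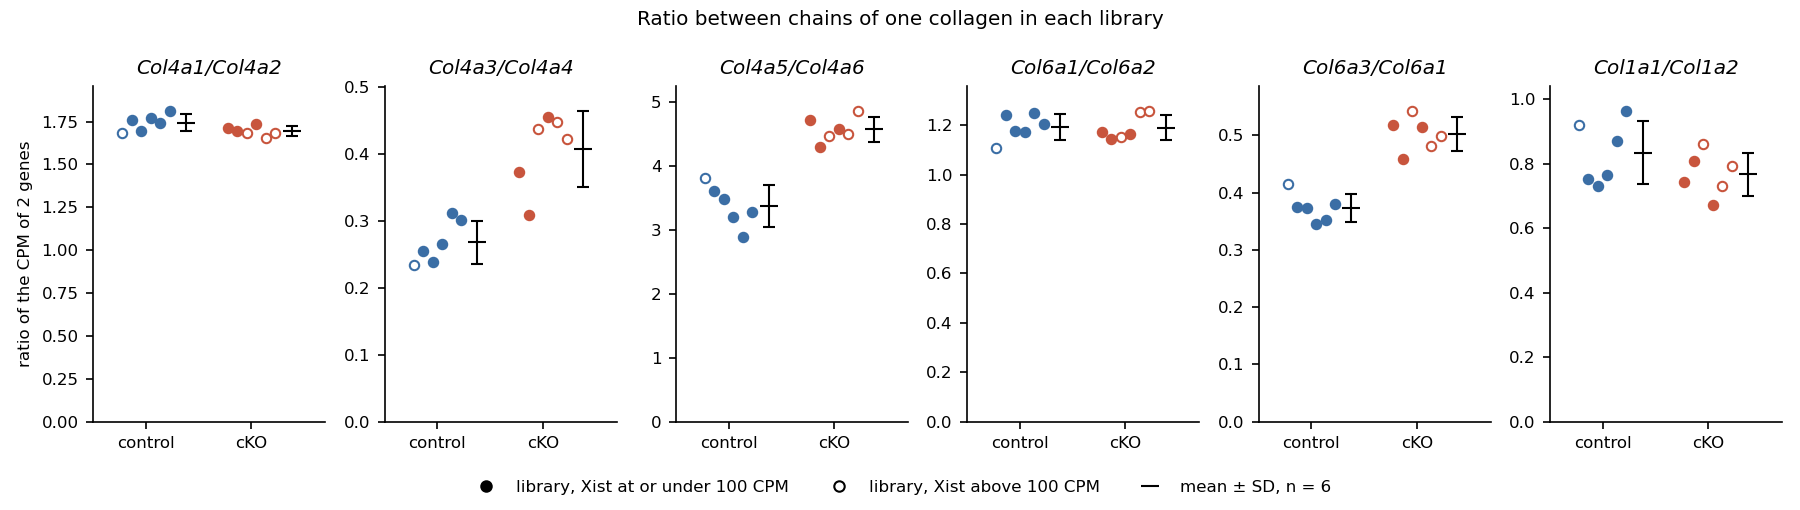
Ratio of the CPM of 2 chains of one collagen (vertical axes, each from 0), with 1 point per library, open for libraries with Xist above 100 CPM, and the mean ± SD of 6 libraries. The ratio of Col4a5 to Col4a6 (3.38 ± 0.33 in control, 4.58 ± 0.20 in cKO) and that of Col6a3 to Col6a1 (0.373 ± 0.0244 and 0.502 ± 0.0296) did not overlap between groups, whereas those of Col4a1 to Col4a2, Col4a3 to Col4a4, Col6a1 to Col6a2 and Col1a1 to Col1a2 did.

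The other basement membrane collagens did not pass the threshold. Col15a1, which links basement membranes to the matrix below, had 49.0 to 158 CPM (median 106) in control and 109 to 188 CPM (median 171) in cKO pools, a log2 fold change of 0.55 (SE 0.23, adjusted p = 0.157). Its lowest value was again in control replicate 5. Col18a1, whose end gives rise to endostatin, had a log2 fold change of 0.16 (adjusted p = 0.381), and Col7a1, the anchoring fibril collagen, of -0.16 (adjusted p = 0.458). Endothelial cells are 1 source of basement membrane. Of 8 endothelial markers only Tek fell (not in low-Xist libraries, adjusted p = 0.182), and the 8 summed to 377 to 538 CPM in control and 373 to 461 CPM in cKO pools. Of 8 pericyte markers only Kcnj8 fell, and the 8 summed to 409 to 712 CPM and 358 to 564 CPM. Their part in these results was not tested.

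Fibril-associated collagens gave 1 lower gene among 8 tested, and their median was 0.10 (0.23 in low-Xist libraries). Col16a1, which is found at fibril surfaces in many tissues, had 179 to 202 CPM (median 186) in control and 127 to 184 CPM (median 153) in cKO pools. Of the cKO libraries, 5 lay under all controls and replicate 2 lay within them. This gave a log2 fold change of -0.30 (SE 0.08, adjusted p = 0.0405). The call was lost in 14 of 20 alternatives. It was -0.19 in low-Xist libraries (adjusted p = 0.175) and -0.28 with Xist as a covariate (adjusted p = 0.0592), the adjusted p was 0.0529 with no filter on low counts, and the adjusted p was 0.0505 to 0.0934 without any 1 of control replicates 2 to 6 or cKO replicates 1, 3, 4, 5 and 6. Col9a3, a chain of collagen IX and the fibril-associated gene with the highest level per kilobase, had 113 to 175 CPM (median 150.6) in control and 120 to 176 CPM (median 150.6) in cKO pools, a log2 fold change of 0.04 (SE 0.12, adjusted p = 0.85). Its partners Col9a1 and Col9a2 had log2 fold changes of 0.33 (adjusted p = 0.129) and 0.07 (adjusted p = 0.634). The ratio of Col9a1 to Col9a3 was 0.0233 to 0.0326 in control and 0.0222 to 0.0411 in cKO libraries. Col14a1, which binds collagen I fibrils, had a log2 fold change of 0.19 over all libraries (adjusted p = 0.306) and rose in low-Xist libraries (0.31, adjusted p = 0.0299). Col12a1, Col20a1 and Col22a1 had log2 fold changes between -0.19 and 0.33 and did not pass the threshold.

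Beaded collagens held both the highest and the lowest log2 fold change of all collagens tested, in genes that lie side by side. The lowest, Col6a5 (-1.23, SE 0.29), was near Col4a4 (-1.21, SE 0.18), so their order is not firm. With 1 library left out Col6a5 reached -1.07, whereas Col4a4 stayed at or under -1.12. Col6a6, Col6a5 and Col6a4 follow each other on the minus strand of chromosome 9, with 27984 bases between the first pair and 29674 between the second. They encode the alternative chains of collagen VI that can replace the Col6a3 chain. Col6a6 (Entrez Gene 245026, chr9:105689417-105828085 of mm10) had 18.9 to 36.1 CPM (median 24.6) in control and 55.4 to 86.7 CPM (median 72.0) in cKO pools, so all cKO libraries lay above all controls. Its log2 fold change was 1.48 (SE 0.16, adjusted p = 9.4e-05), and 1.75 in low-Xist libraries (adjusted p = 1e-04). Col6a5 (Entrez Gene 665033, chr9:105856070-105960643) had 3.70 to 7.68 CPM (median 4.98) in control and 1.09 to 4.34 CPM (median 1.80) in cKO pools, from 8 to 284 counts per library. Of the cKO libraries, 5 lay under all controls and replicate 3 lay within them. The log2 fold change was -1.23 (SE 0.29, adjusted p = 0.0177), and -1.42 in low-Xist libraries (adjusted p = 0.0043). Col6a4 had 11.9 to 29.2 CPM (median 14.4) in control and 11.0 to 20.3 CPM (median 15.5) in cKO pools, a log2 fold change of -0.06 (adjusted p = 0.881), which was 0.20 without control replicate 1. The 250 bases before the starts of Col6a6 (chr9:105828086-105828335) and Col6a5 (chr9:105960644-105960893) are printed on the minus strand, because these neighbours moved in opposite directions (RefSeq promoter table, GRCm38.p6). Capitals mark the letters AGGTCA, which occur once, on the opposite strand 241 bases before the start of Col6a5.
Col6a6: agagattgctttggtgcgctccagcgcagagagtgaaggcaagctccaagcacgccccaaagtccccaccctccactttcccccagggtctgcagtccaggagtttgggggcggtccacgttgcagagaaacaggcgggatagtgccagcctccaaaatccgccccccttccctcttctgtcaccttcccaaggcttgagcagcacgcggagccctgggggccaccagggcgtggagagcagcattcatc
Col6a5: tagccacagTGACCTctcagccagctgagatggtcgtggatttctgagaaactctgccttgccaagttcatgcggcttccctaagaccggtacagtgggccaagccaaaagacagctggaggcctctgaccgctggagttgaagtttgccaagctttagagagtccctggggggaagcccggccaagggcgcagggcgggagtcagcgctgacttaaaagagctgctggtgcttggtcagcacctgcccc

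The common chains of collagen VI did not pass the threshold over all libraries. Col6a1 had 705 to 949 CPM (median 869) in control and 586 to 849 CPM (median 775) in cKO pools, a log2 fold change of -0.23 (SE 0.10, adjusted p = 0.19). Col6a2 had 564 to 815 CPM (median 710) and 466 to 742 CPM (median 663), a log2 fold change of -0.22 (SE 0.13, adjusted p = 0.29). The ratio of Col6a1 to Col6a2 was 1.11 to 1.25 in control and 1.14 to 1.26 in cKO libraries. Col6a3 had 249 to 374 CPM (median 327) in control and 285 to 436 CPM (median 386) in cKO pools, a log2 fold change of 0.20 (SE 0.12, adjusted p = 0.298). It was 0.37 in low-Xist libraries, past the threshold there (adjusted p = 0.0444). Per library, the ratio of Col6a3 to Col6a1 was 0.345 to 0.415 in control and 0.459 to 0.543 in cKO libraries, with no overlap. Col28a1, at under 1.46 CPM in every library, had a log2 fold change of -0.04 (adjusted p = 0.923). The median of the 7 beaded genes was -0.06 (0.01 in low-Xist libraries).

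All 4 transmembrane collagens had log2 fold changes under 0, and 2 of them passed the threshold. The median was -0.56 (-0.35 in low-Xist libraries). Col13a1, a collagen of cell adhesion sites and of the neuromuscular junction, had 37.5 to 59.6 CPM (median 51.7) in control and 16.1 to 34.0 CPM (median 24.3) in cKO pools. All cKO libraries lay under all controls, and control replicate 1 was the lowest control. Its change on the log2 scale was -1.02 (SE 0.16, adjusted p = 0.00172), and -0.86 in low-Xist libraries (adjusted p = 0.00303). Col25a1, which takes part in the innervation of muscle by motor neurons, had 55.9 to 90.5 CPM (median 80.0) in control and 33.3 to 71.1 CPM (median 51.1) in cKO pools. Of the cKO libraries, 4 lay under all controls. The log2 fold change was -0.62 (SE 0.17, adjusted p = 0.0378), and -0.41 in low-Xist libraries (adjusted p = 0.0433). Its adjusted p was 0.0516 to 0.0856 without any 1 of control replicates 2 to 6 or cKO replicates 1, 3, 4, 5 and 6. Col23a1 (-0.50, adjusted p = 0.11, and 0.0321 without control replicate 5) and Col17a1, the hemidesmosome collagen of skin (-0.26, adjusted p = 0.336), did not pass the threshold.

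The 3 tested collagens outside these types all fell, and their groups did not overlap in any of them. Col26a1, first described in testis and ovary, had 87.9 to 105.2 CPM (median 97.7) in control and 59.2 to 74.1 CPM (median 59.7) in cKO pools. This gave a change of -0.64 on the log2 scale (SE 0.07, adjusted p = 0.000159), and -0.59 in low-Xist libraries (adjusted p = 0.00289). Among the collagens that fell it had the smallest standard error, and 5 of its cKO values lay between 59.2 and 65.6 CPM. Col8a1 and Col8a2 encode the short chains of the network-forming collagen VIII of vessels and of the cornea. Col8a2 had 58.9 to 82.8 CPM (median 63.3) in control and 33.0 to 51.2 CPM (median 45.2) in cKO pools, a log2 fold change of -0.59 (SE 0.11, adjusted p = 0.00501). Per kilobase of transcript Col8a1 was lower (0.982 ± 0.348 against 15.6 ± 2.21 CPM per kb in control testes, SD, n = 6), with 3.15 to 8.20 CPM (median 4.36) and 2.02 to 3.11 CPM (median 2.38) from 16 to 303 counts per library. Its log2 fold change was -1.05 (SE 0.22, adjusted p = 0.00794), and its highest control value was in replicate 1.

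Collagen chains are hydroxylated, folded with the help of chaperones, cut at their ends outside the cell and then cross-linked. Of 64 genes of these steps and of collagen binding, 61 were tested, and 14 fell and 4 rose, against 4.85% and 3.28% of all genes. The median log2 fold change was -0.15 (-0.09 in low-Xist libraries, where 8 fell and 5 rose). Cross-linking enzymes had the largest number of falls for their count, with 5 of 7 (4 in low-Xist libraries, where Loxl1 had -0.40 and an adjusted p of 0.0942). Lox, the lysyl oxidase that starts the cross-links of fibrillar collagen, had 84.6 to 119 CPM (median 90.5) in control and 31.1 to 64.0 CPM (median 47.0) in cKO pools, with no overlap. Its log2 fold change was -1.03 (SE 0.14, adjusted p = 0.000713). Its relatives Loxl4 (-1.36), Loxl1 (-0.52) and Loxl3 (-0.50) fell as well, and so did the transglutaminase Tgm2 (-0.56), while Loxl2 (0.09, adjusted p = 0.644) and Pxdn (-0.08, adjusted p = 0.606) did not pass the threshold. Pxdn, the enzyme that cross-links collagen IV, had 391 to 528 CPM in control and 395 to 514 CPM in cKO pools.

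Small proteoglycans and glycoproteins that bind fibrils moved in both directions. Of 11 tested, Dcn (-0.98), Bgn (-0.55), Fmod (-0.74) and Ogn (-1.22) fell. In low-Xist libraries 3 fell and 3 rose, since Bgn had -0.35 (adjusted p = 0.0692) and Prelp rose (0.65, adjusted p = 0.0156). Bgn had 352 to 449 CPM in control and 205 to 358 CPM in cKO pools. Dpt, which speeds fibril formation, rose, with 0.23 to 1.45 CPM in control and 2.02 to 6.14 CPM in cKO pools, a log2 fold change of 2.31 (SE 0.34, adjusted p = 0.00102). Tnxb, an organiser of fibril spacing, rose as well, with 8.34 to 31.0 CPM and 35.8 to 57.9 CPM, a log2 fold change of 1.5 (SE 0.25, adjusted p = 0.00232). Inside the cell, the prolyl 4-hydroxylase subunits P4ha2 (-0.62) and P4ha3 (0.58) moved in opposite directions, and the common subunit P4hb did not pass the threshold (-0.15, adjusted p = 0.154). In low-Xist libraries P4ha2 had -0.52 (adjusted p = 0.153). P3h2, a prolyl 3-hydroxylase with a preference for collagen IV, fell (-0.53, and -0.31 with an adjusted p of 0.163 in low-Xist libraries), and the other 5 genes of that step, Ppib included (-0.25, adjusted p = 0.154), did not pass. None of 5 lysyl hydroxylation genes passed, with Plod2 at -0.43 (adjusted p = 0.113) and Colgalt2 at 0.57 (adjusted p = 0.0566). Among 12 chaperone and export genes, Fkbp14 (-0.47) and Kdelr3 (-0.56) fell, and Sparc had 0.19 (adjusted p = 0.327). In low-Xist libraries the fold change of Fkbp14 was as large (-0.50), with an adjusted p of 0.0505. Of 7 propeptide cleavage genes only Tll1, a procollagen C-proteinase, changed, at 1.09 (adjusted p = 0.00091), and Pcolce had 0.05 (adjusted p = 0.835). Among 9 collagen receptors Ddr2, which binds fibrillar collagen, fell (-0.50, adjusted p = 0.0198, and -0.35 with 0.0542 in low-Xist libraries), and the integrin subunit Itgb1 had -0.24 (adjusted p = 0.164).

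**Figure D5:**
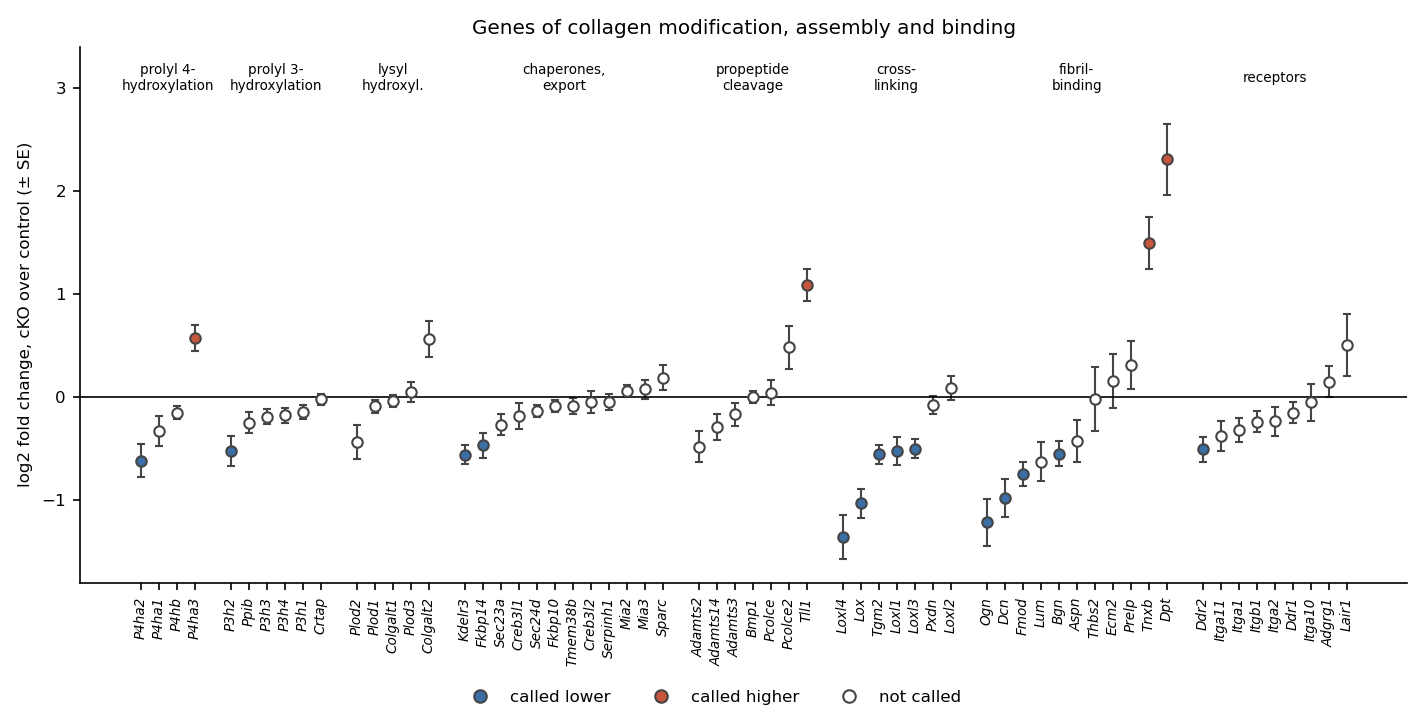
Log2 fold change of cKO over control (vertical axis) with its standard error for 61 genes of collagen modification, assembly, cross-linking and binding, grouped by role. Among 7 cross-linking genes 5 fell, with Loxl4 at -1.36 and Lox at -1.03, and the 2 largest rises were Dpt at 2.31 and Tnxb at 1.5.

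Some markers of testis and skeletal cell types moved with these genes. Of 10 contractile markers, which in the fetal testis label peritubular myoid cells and the tunica, 9 fell (7 in low-Xist libraries, where Actg2 had -1.15 with an adjusted p of 0.0604, against -1.004 over all libraries, and Mylk -0.15 with 0.166, against -0.31), and the list summed to 844 to 943 CPM in control and 488 to 703 CPM in cKO pools. Of the interstitial markers, Tcf21 (log2 fold change -1.03) and Wnt5a (-0.64) fell, and Pdgfra did not pass the threshold (-0.41, adjusted p = 0.0649). Of 5 bone markers 3 could be tested. Ibsp rose (log2 fold change 3.69), with at most 3.85 CPM, whereas Alpl (-0.06, adjusted p = 0.819) and Dmp1 (-0.32, adjusted p = 0.652) did not pass, and Bglap and Sp7 stayed at or under 0.868 CPM. The 5 summed to 54.6 to 100.5 CPM in control and 69.0 to 105.2 CPM in cKO pools. Of 5 fetal Leydig cell markers 4 fell, namely Cyp11a1, Cyp17a1, Hsd3b1 and Insl3, and the 5 summed to 1561 to 2910 CPM in control and 841 to 1745 CPM in cKO pools. Of 6 macrophage markers Csf1r (0.44) and Cx3cr1 (0.92) rose with no overlap of the groups, and the 6 summed to 40.1 to 57.7 CPM and 56.6 to 68.1 CPM. Msln (0.92), 1 of 6 markers of the gonadal surface epithelium, rose over all libraries, as did Pax8 (0.47), 1 of 5 of the mesonephric epithelium. Neither passed in low-Xist libraries (adjusted p = 0.19 and 0.0808), where Emx2 of the mesonephric list fell (-0.33, adjusted p = 0.0454). The surface list summed to 334 to 678 CPM in control and 370 to 681 CPM in cKO pools. The mesonephric list summed to 40.1 to 82.4 CPM and 36.0 to 63.8 CPM. The part of these cells in the collagen results was not tested.

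Promoter windows were available for 35 of the 44 collagen genes, in 38 windows of 300 bases (250 before and 50 after a start). AGGTCA was found on either strand in 8 of these windows (21.1%), against 16.3% of 32851 windows of all genes. CCAAT, the box read by NF-Y, was found in 13 (34.2%) against 37.4%, and TATAAA in 5 (13.2%) against 13.6%. A match is a description of the letters and not a site of binding. The 8 genes with AGGTCA were Col4a4, Col6a5 and Col11a1, which passed the threshold, and Col7a1, Col9a1, Col20a1, Col23a1 and Col24a1, which did not. Of the other collagens past the threshold, Col3a1, Col4a6, Col6a6, Col8a1, Col8a2, Col13a1, Col16a1 and Col25a1 had a window without it.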

How the data were processed

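RNA was isolated from pools of 3 E14.5 testes, and polyadenylated RNA was made into stranded libraries. Per the labels and the study's methods, the authors trimmed read pairs with Trim Galore 0.6.7, aligned them to mm10 with STAR 2.5 and counted them by strand on RefSeq Curated models with featureCounts (Subread 1.5.0-p1). The deposited values are raw counts per gene, with no normalization. All 12 libraries were used and grouped by genotype.

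The counts were analysed here with edgeR 4.0.16 (R 4.3.3). After TMM scaling, genes were kept by filterByExpr (minimum count 10, minimum total 15), and cKO was compared with control by the quasi-likelihood test (glmQLFit, glmQLFTest) with no covariate and Benjamini-Hochberg adjustment over 15572 genes. CPM are relative to the TMM-scaled library total. Alternatives were other scaling and filters, DESeq2 1.42.0, limma-voom (limma 3.58.1), a replicate block, Xist as a covariate, only libraries with Xist at or under 100 CPM, and leaving out each library. On simulated cKO and control libraries with 15572 genes, the test recovered 44 of 100 genes changed by 0.5 and 87 of 100 changed by 1 on the log2 scale, with 7 false calls among 138. Counts were not corrected for transcript length, so levels of single collagens were compared per kb of the GENCODE M21 transcript, whereas shares, sums and chain ratios were left uncorrected. The 82 bases of Mir455 in Col27a1 and of Mir711 in Col7a1 share the strand of those genes.

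The members, gene lists and alternatives were chosen with earlier results of these data known. Named were all collagens past the threshold, the 2 per type with the highest control CPM per kb, their partner chains and neighbours, all pathway genes past the threshold and the pathway gene of each role with the highest control CPM, which depends on transcript length. Part of the interstitial marker list is not reported here.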

Additional observations from a re-analysis of the deposited data

Results flagged for a closer look

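The values of each tested collagen were examined for a library that stood apart from the other 5 of its group, by the gap to the nearest library divided by the range of the group, with a limit of 0.625. Among 84 groups 3 values passed this limit, which is fewer than the about 1 in 20 groups that would by chance. Col6a4 had 29.25 CPM in control replicate 1, against 15.04 CPM in the next control library. Col20a1 had 6.115 CPM in the same library, against 3.131 CPM in the next. Control replicate 1 is the control library with high Xist. Col4a4 had 32.2 CPM in cKO replicate 2, against 20.14 CPM in the next cKO library, and this library also had the highest Nr2f2 level among the cKO libraries (118.6 CPM). The cause of these values was not tested.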

How the results depend on the processing

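Size factors by RLE, both filters, limma-voom and Xist as a covariate gave 10 to 12 lower and 2 or 3 higher collagens, and DESeq2 13 and 2. DESeq2 called 878 genes higher over all genes, against 510 with edgeR. In low-Xist libraries 4 collagens were higher and the collagen median was -0.03247. Leaving out each library gave 497 to 1635 lower and 319 to 1471 higher genes, 7 to 13 lower and 1 to 3 higher collagens, and collagen medians of -0.2497 to -0.1382. Without control replicate 1, 1635 genes were lower and 1471 higher. Without cKO replicate 4 they were 497 and 319. Signs turned only in genes not past the threshold. Col28a1 was 0.0179 with the replicate block, 0.01371 in low-Xist libraries and -0.1068 to 0.01717 with 1 library left out. Col6a4 was 0.2456 in low-Xist libraries and -0.1447 to 0.2017 with 1 left out, Col7a1 0.07129 in low-Xist libraries, and Col9a3 -0.01597 to 0.1002 with 1 left out. The cause was not tested.

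Replicate numbers did not pair the libraries: deviations of same-numbered libraries correlated at -0.291, 0.284, -0.218, 0.295, 0.123 and 0.0528. With the replicate block 539 genes were lower and 392 higher, with 10 lower and 2 higher collagens. There Col11a1 (adjusted p = 0.0822), Col16a1 (0.0679), Col4a3 (0.0596) and Col4a6 (0.078) were no longer past the threshold, and Col15a1 (0.61, SE 0.12, adjusted p = 0.0188) and Col23a1 (-0.51, adjusted p = 0.0168) were. Col3a1 had 11904 to 120381 counts per library, whereas the lowest library had 8 counts for Col6a5, 16 for Col8a1 and 5 for Col28a1, which limits their precision.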
